A study of Mus musculus with 8 samples.

Results

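The adaptor proteins and signalling kinases that work downstream of the Toll-like receptors (TLRs) were examined as a set of 38 genes, of 37018 genes and transcripts on the array. They comprised 4 TIR-domain adaptors, 11 genes of the IRAK, TRAF and TAK1 complex, 5 IKK and IKK-related kinases, 3 genes of the RIP kinase and caspase-8 group, 11 MAP kinase cascade genes and 4 PI3K and AKT genes. The genes were chosen for their known roles, by a rule that uses no measured value but was set with earlier results of these data known, and the brightest probe over all arrays stood for each gene. All 38 had a probe, 14 had more than 1 probe, and 36 were well above background in all 16 channels. Map2k6 and Mapk8 were well above background in 12 of the 16.

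The cells were adherent peritoneal macrophages of mice on a C57BL/6 background, cultured and then left unstimulated or exposed to LPS of E. coli at 1 μg/ml for 1, 4 or 24 h. The KO mice were LysMCre-fur(fl/fl), in which Cre driven by the lysozyme 2 locus removes floxed Furin alleles in myeloid cells, and the WT mice were littermates. Each time point had 2 biological replicates, so there were 2 WT and 2 KO samples in each of 4 conditions, measured on 8 two-colour arrays that each carried WT and KO RNA of the same condition. Between 43.8% and 51.3% of the probes of a channel were well above background, and the p-values of limma rest on the spread between replicates pooled over all groups. The age of the mice, whether animals were pooled and whether the WT littermates carried Cre or floxed alleles were not given for the arrays in the sources used here.

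TLR4 recognises LPS together with CD14 and MD-2 and signals through paired adaptors. TIRAP brings MyD88 to the receptor at the cell surface, and MyD88 assembles the IRAK kinases, which engage the ubiquitin ligase TRAF6 and the kinase TAK1 and so switch on the IKK complex of the NF-κB pathway and the MAP kinases. TRAM and TRIF, encoded by Ticam2 and Ticam1, act from endosomes through TRAF3, TBK1 and IKKε on interferon regulatory factors. Most of these steps run by phosphorylation and ubiquitination of proteins that are already present, and the arrays measured only the mRNA of the components.

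Promoter sequence is shown for Traf1, Peli1 and Myd88, which rose strongly with LPS, and for Map3k7 and Traf3, whose windows held a match to the NF-κB consensus. RefSeq promoter entries of the GRCm38.p6 build matched 32 of the 38 members by symbol, and Ikbkb, Map3k8, Mapk3, Ripk2, Tab1 and Ticam2 were not among them. Each window is the 250 bases before an annotated start, 5′ to 3′ on the strand of the gene. Capitals mark a match, on either strand, to the NF-κB consensus or a related form (GGGA and TTCC with 2 bases of any kind between). They also mark TGANTCA of AP-1, TGACGTCA of CREB and the interferon-response pair (GAAA, 2 bases of any kind, GAAA).
Traf1: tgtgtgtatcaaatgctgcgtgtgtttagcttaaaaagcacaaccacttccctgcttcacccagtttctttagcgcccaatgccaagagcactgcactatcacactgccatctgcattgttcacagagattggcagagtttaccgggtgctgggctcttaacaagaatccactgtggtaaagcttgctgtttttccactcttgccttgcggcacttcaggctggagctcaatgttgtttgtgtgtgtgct
Peli1: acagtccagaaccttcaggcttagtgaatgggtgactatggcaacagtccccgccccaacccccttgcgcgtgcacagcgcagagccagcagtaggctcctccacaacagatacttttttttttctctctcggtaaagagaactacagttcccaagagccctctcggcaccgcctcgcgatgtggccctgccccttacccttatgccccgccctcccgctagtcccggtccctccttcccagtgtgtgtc
Myd88: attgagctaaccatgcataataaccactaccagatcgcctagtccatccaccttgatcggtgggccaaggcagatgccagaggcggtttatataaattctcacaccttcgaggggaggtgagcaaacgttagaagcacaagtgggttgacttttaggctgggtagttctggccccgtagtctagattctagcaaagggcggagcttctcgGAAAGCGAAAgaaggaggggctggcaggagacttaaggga
Map3k7: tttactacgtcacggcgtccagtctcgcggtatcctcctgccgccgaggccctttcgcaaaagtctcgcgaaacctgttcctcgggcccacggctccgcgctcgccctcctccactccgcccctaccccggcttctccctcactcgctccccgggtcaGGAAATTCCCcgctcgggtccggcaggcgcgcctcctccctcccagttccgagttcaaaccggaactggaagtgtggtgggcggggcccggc
Traf3: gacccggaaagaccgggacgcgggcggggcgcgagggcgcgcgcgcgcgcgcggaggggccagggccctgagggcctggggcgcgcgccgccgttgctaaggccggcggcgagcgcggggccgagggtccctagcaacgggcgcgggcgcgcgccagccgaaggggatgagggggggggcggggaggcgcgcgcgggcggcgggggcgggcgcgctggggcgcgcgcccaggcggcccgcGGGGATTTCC
The Traf1 window is chr2:34961773-34962022 on the minus strand, that of Peli1 is chr11:21091074-21091323 on the plus strand, that of Myd88 is chr9:119340019-119340268 on the minus strand, that of Map3k7 is chr4:31963857-31964106 on the plus strand and that of Traf3 is chr12:111166120-111166369 on the plus strand. The windows of Traf1 and Peli1 held none of these motifs, which says only that these letters were not in the 250 bases shown. The capitals in the Myd88 window are an interferon-response pair. Those in Map3k7 match both the NF-κB consensus and the related form at the same bases, and those in Traf3 match the NF-κB consensus next to the start. Over the 51 promoter windows of the members, 3 (5.88%) held the NF-κB consensus against 3.9% of the 32851 windows in the table, and the third member was Pik3r1. The related form was in 1.96% of the member windows and 1.21% of all windows, TGANTCA in 9.8% and 6.75%, and the interferon-response pair in 3.92% and 2.98%. TGACGTCA was in none of the member windows and in 1.55% of all windows. The GC box GGGCGG, which is not in capitals in the windows shown, was in 51% of the member windows and 32.7% of all windows, and the windows of Peli1, Myd88, Map3k7 and Traf3 held it. These shares are descriptions of the sequence and were not tested.

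LPS moved most of the members, in both directions, and more of them at 4 h than at 1 h or 24 h. In WT macrophages 31 of 38 members passed the test at 4 h (21 rose and 10 fell), where 34.8% of all features tested did (15.5% rose and 19.2% fell), and in the RNA labelled KO 32 of 38 passed (21 rose and 11 fell), against 36% of all features (16.3% rose and 19.7% fell). Many of the features tested are dim. Among named genes well above background in all 16 channels 18.9%, 68% and 57.9% passed in WT at 1, 4 and 24 h, against 13, 30 and 25 of the 36 members that meet the same condition. In KO the shares were 17.4%, 68.8% and 55.1%, against 15, 31 and 24 of those 36. At 1 h 13 members passed in WT (10 rose and 3 fell) and 15 in KO (10 rose and 5 fell), where 8.54% and 7.54% of all features did (3.36% and 3.08% rose, 5.18% and 4.46% fell). The 1 h counts were 7 or 8 in each genotype when either unstimulated array or either 1 h array was left out. At 24 h 25 members passed in WT (15 rose and 10 fell) and 24 in KO (14 rose and 10 fell), where 30.4% and 28.7% of all features did (13.5% and 12.8% rose, 16.9% and 15.9% fell). The median log2 change of the members was 0.13, 0.64 and 0.26 in WT and 0.13, 0.74 and 0.22 in KO at 1, 4 and 24 h, while the median over all features lay between -0.02 and 0.00 in all 6 comparisons. With the replicate number as a block, 12 LPS calls were gained (9 in WT and 3 in KO) and 0 were lost. The counts were then 17, 32 and 29 in WT (12.2%, 39.2% and 34.9% of all features) and 16, 32 and 26 in KO (11.9%, 40.4% and 33.5%). Here a change is the log2 intensity with LPS minus that of unstimulated macrophages of the same genotype, tested with limma on separate channels with Benjamini-Hochberg adjustment over all features and a threshold of 0.05.

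**Figure D1:**
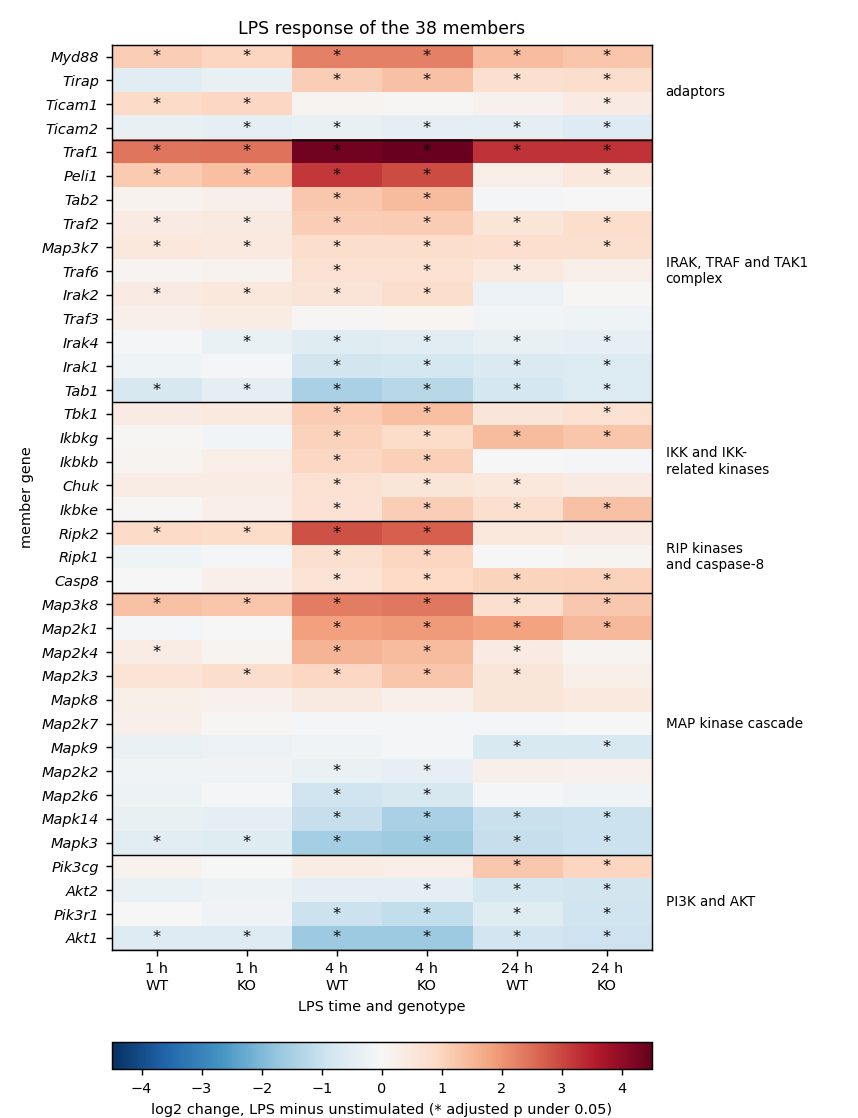
Colour map of the log2 change with LPS (LPS minus unstimulated) of the 38 members, in rows grouped by role, at 1, 4 and 24 h in WT and KO macrophages. An asterisk marks an adjusted p under 0.05. The reds of Traf1, Peli1, Ripk2, Map3k8 and Myd88 at 4 h and the blues of Akt1, Mapk3 and Tab1 stand out in both genotypes.

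In all, 22 members passed the test with a log2 change of 1 or more in either direction at any time in either genotype, 17 of which rose and 5 of which fell. Over all features 20.2% met the same condition, and among named genes well above background in all 16 channels 44.8% did, against 22 of 36 members. These are given with their values, and the rest more briefly. Their fitted change was greatest in size at 4 h for 18 of the 22 in either genotype, and at 24 h for Casp8, Ikbke, Ikbkg and Pik3cg. Differences between one LPS time and another were not tested.

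Among the adaptors, Myd88 rose at every time. The Myd88 probe read a log2 intensity of 11.79 and 11.81 without LPS, 13.01 and 12.82 after 1 h, 14.17 and 13.93 after 4 h, and 13.29 and 13.13 after 24 h of exposure in WT macrophages. In KO macrophages it read 11.87 and 11.91 without LPS, 12.88 and 12.84 after 1 h, 14.31 and 13.98 after 4 h, and 13.18 and 13.08 after 24 h of exposure. All LPS samples lay above all unstimulated samples, and WT and KO values of a time point lay close together. The log2 change in WT at 1, 4 and 24 h was 1.12 ± 0.12, 2.25 ± 0.12 and 1.41 ± 0.12 (SE, n = 2 against 2), a rise of 4.76-fold at 4 h with a limma adjusted p of 4.59e-09. In KO it was 0.97 ± 0.12, 2.26 ± 0.12 and 1.24 ± 0.12. Tirap, the bridging adaptor of MyD88, read 9.48 and 9.63 without LPS, 9.09 and 9.09 after 1 h, 10.79 and 10.50 after 4 h, and 10.39 and 10.19 after 24 h of exposure in WT and 9.53 and 9.46 without LPS, 9.25 and 9.11 after 1 h, 11.06 and 10.59 after 4 h, and 10.37 and 10.20 after 24 h of exposure in KO. It was below its unstimulated level in all 4 samples at 1 h, which did not pass the test (-0.46 ± 0.15 in WT, adjusted p = 0.0739, but 0.0214 with the replicate block), and it rose at 4 h by 1.10 ± 0.15 in WT and 1.33 ± 0.15 in KO and at 24 h by 0.73 ± 0.15 and 0.79 ± 0.15. The adaptors of the other branch differed from these. Ticam1, which encodes TRIF, rose at 1 h by 0.87 ± 0.11 in WT and 0.91 ± 0.11 in KO, and its change at 4 h was 0.11 ± 0.11 (adjusted p = 0.534) and 0.05 ± 0.11 (adjusted p = 0.786). Ticam2, which encodes TRAM, fell at 4 and 24 h in both genotypes, with changes from -0.58 to -0.32.

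In the IRAK, TRAF and TAK1 complex, 7 of 11 members rose and 3 fell at 4 h in either genotype. Traf1, an adaptor of TNF-receptor signalling that is a known NF-κB target, changed most of all 38 members at each time. Traf1 read 10.45 and 10.88 without LPS, 12.97 and 13.19 after 1 h, 15.05 and 14.98 after 4 h, and 13.75 and 14.11 after 24 h of exposure in WT, and 10.58 and 10.97 without LPS, 13.09 and 13.33 after 1 h, 15.24 and 15.19 after 4 h, and 14.10 and 13.95 after 24 h of exposure in KO. The unstimulated samples were the lowest and the 4 h samples the highest, with no overlap between the times 0, 1 and 4 h. The changes in WT over the LPS times were 2.42 ± 0.17, 4.35 ± 0.17 and 3.27 ± 0.17, and in KO 2.43 ± 0.17, 4.44 ± 0.17 and 3.25 ± 0.17, so the rise at 4 h was 20.5-fold in WT and 21.7-fold in the RNA labelled KO (adjusted p = 1.95e-10 and 1.86e-10). Peli1, a ubiquitin ligase of the IRAK step, read 11.41 and 11.76 without LPS, 12.84 and 12.66 after 1 h, 14.75 and 14.78 after 4 h, and 11.79 and 11.95 after 24 h of exposure in WT and 11.73 and 11.82 without LPS, 13.08 and 13.16 after 1 h, 14.84 and 14.59 after 4 h, and 12.19 and 12.28 after 24 h of exposure in KO. Its 4 h values stood above all others, and at 24 h the samples were below those at 1 h. The changes of Peli1 in WT were 1.17 ± 0.13, 3.18 ± 0.13 and 0.28 ± 0.13 at 1, 4 and 24 h, the last with an adjusted p of 0.122, and in KO 1.35 ± 0.13, 2.94 ± 0.13 and 0.46 ± 0.13, the last with an adjusted p of 0.0134.

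Tab2, a ubiquitin-binding partner of TAK1, rose at 4 h by 1.23 ± 0.15 in WT and 1.41 ± 0.15 in KO and stood at -0.07 ± 0.15 and 0.01 ± 0.15 at 24 h, where it did not pass. Map3k7, which encodes TAK1 itself, rose on its main probe at all times by between 0.45 and 0.80. At 24 h its other probes changed less, by 0.38 and 0.27 in WT and 0.18 and 0.10 in KO, where the main probe gave 0.76 and 0.72. Traf2, an adaptor with a ligase domain, rose at 4 h by 1.11 ± 0.10 in WT and 1.15 ± 0.10 in KO. Tab1, the activating partner of TAK1, moved the other way. Tab1 read 11.57 and 11.50 without LPS, 10.74 and 10.88 after 1 h, 9.93 and 10.20 after 4 h, and 10.82 and 10.69 after 24 h of exposure in WT and 11.13 and 11.40 without LPS, 10.84 and 10.81 after 1 h, 9.91 and 10.10 after 4 h, and 10.67 and 10.63 after 24 h of exposure in KO. It was lowest at 4 h in both genotypes, and all LPS samples lay below the unstimulated ones. The change at 4 h was -1.47 ± 0.12 in WT (adjusted p = 2.64e-07) and -1.26 ± 0.12 in KO (adjusted p = 1.23e-06). Irak1 and Irak4, the kinases that bind MyD88, fell at 4 h by smaller amounts, Irak1 with a change of -0.83 ± 0.14 in WT and -0.79 ± 0.14 in KO, and Irak4 with -0.56 ± 0.09 and -0.52 ± 0.09. Irak2 rose on its main probe at 1 and 4 h, by 0.59 ± 0.10 in WT and 0.79 ± 0.10 in KO at 4 h. Traf6, the ubiquitin ligase downstream of the IRAK kinases, rose at 4 h by 0.67 ± 0.11 and 0.70 ± 0.11. Traf3, the member whose window ends in an NF-κB consensus match, did not pass the test at any time in either genotype, with changes between -0.18 and 0.35.

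**Figure D2:**
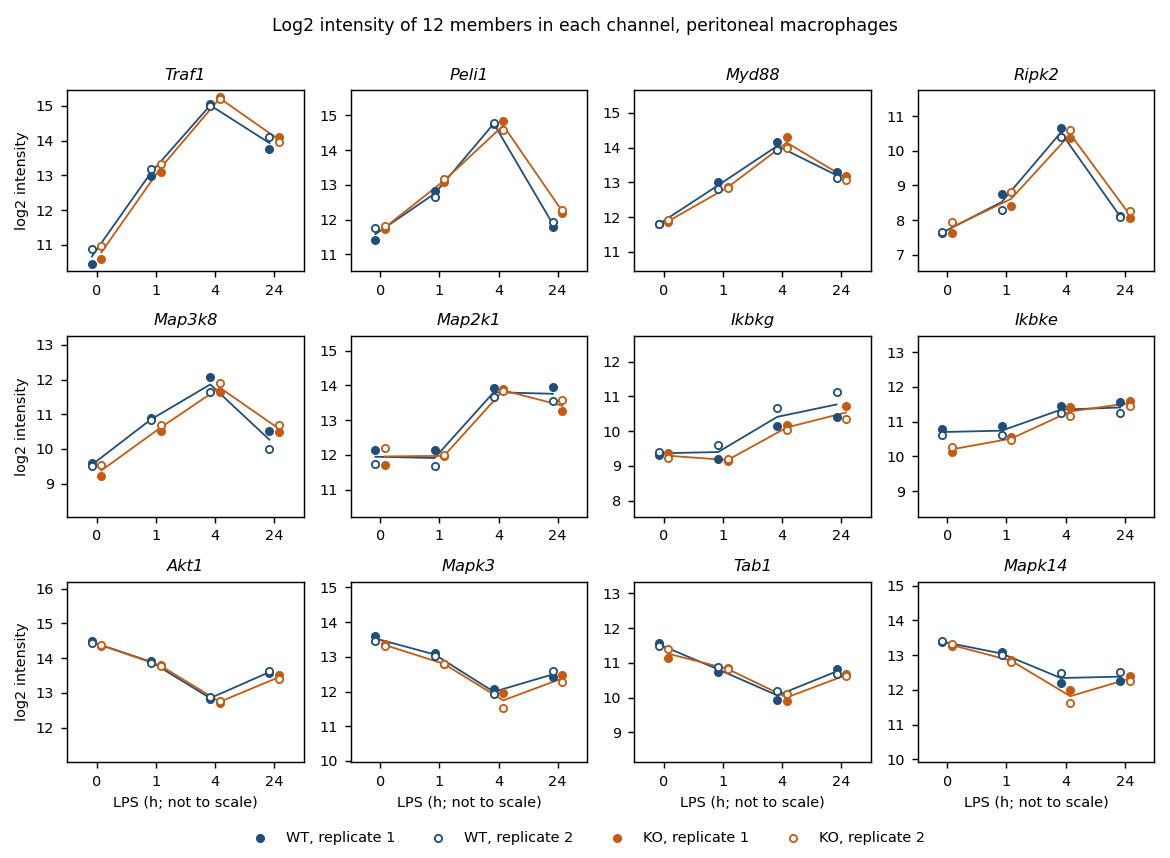
Log2 intensity of 12 members in every channel against LPS time (0 is unstimulated; the time axis is not to scale), with filled points for replicate 1, open points for replicate 2 and lines through the group means of WT (blue) and KO (orange). All panels span the same number of log2 units. Traf1, Peli1, Myd88 and Ripk2 peak at 4 h, Akt1, Mapk3 and Tab1 are lowest there, and WT and KO points lie together in most panels.

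All 5 IKK and IKK-related kinases rose at 4 h in both genotypes, and none passed the test at 1 h without the replicate block. With it Chuk passed at 1 h in WT (0.34 ± 0.15, adjusted p = 0.0475 against 0.228 without). Ikbkg, which encodes the scaffold NEMO, read 9.32 and 9.39 without LPS, 9.20 and 9.59 after 1 h, 10.15 and 10.67 after 4 h, and 10.40 and 11.13 after 24 h of exposure in WT and 9.36 and 9.22 without LPS, 9.14 and 9.19 after 1 h, 10.18 and 10.03 after 4 h, and 10.73 and 10.34 after 24 h of exposure in KO. Its replicates were further apart at 4 and 24 h in WT than those of the members above, with replicate 2 the higher. In KO replicate 1 was the higher at these times, so the higher value carried the same dye in both genotypes. The part of the dye in these gaps was not tested. Its changes at 4 and 24 h were 1.05 ± 0.23 and 1.41 ± 0.23 in WT, against 0.81 ± 0.23 and 1.25 ± 0.23 in KO. The WT call at 4 h was lost with loess alone and with the processed signals. Ikbkb, the main catalytic kinase of the complex, rose at 4 h by 0.92 ± 0.15 in WT and 1.07 ± 0.15 in KO and stood at -0.02 ± 0.15 and -0.08 ± 0.15 at 24 h. Chuk, which encodes IKKα, rose at 4 h by 0.68 ± 0.15 and 0.53 ± 0.15. Of the kinases of the interferon branch, Tbk1 rose at 4 h by 1.14 ± 0.21 in WT and 1.36 ± 0.21 in KO. Ikbke, which encodes IKKε, read 10.78 and 10.63 without LPS, 10.88 and 10.60 after 1 h, 11.44 and 11.25 after 4 h, and 11.56 and 11.26 after 24 h of exposure in WT and 10.13 and 10.28 without LPS, 10.55 and 10.47 after 1 h, 11.42 and 11.16 after 4 h, and 11.61 and 11.46 after 24 h of exposure in KO. The unstimulated KO samples were below the unstimulated WT samples, and at 24 h the WT and KO values overlapped. Its changes at 4 and 24 h were 0.64 ± 0.14 and 0.71 ± 0.14 in WT, against 1.09 ± 0.14 and 1.33 ± 0.14 in KO.

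Ripk2, the kinase that relays signals of the NOD receptors, rose at 1 and 4 h in both genotypes. Ripk2 read 7.62 and 7.67 without LPS, 8.74 and 8.30 after 1 h, 10.66 and 10.39 after 4 h, and 8.13 and 8.10 after 24 h of exposure in WT and 7.64 and 7.95 without LPS, 8.41 and 8.82 after 1 h, 10.36 and 10.59 after 4 h, and 8.06 and 8.27 after 24 h of exposure in KO. The 4 h samples stood above all others. Its change in WT was 0.88 ± 0.18 at 1 h, 2.88 ± 0.18 at 4 h (adjusted p = 1.9e-08) and 0.47 ± 0.18 at 24 h (adjusted p = 0.0661), and in KO 0.82 ± 0.18, 2.68 ± 0.18 and 0.37 ± 0.18. The 24 h values passed with the replicate block (adjusted p = 0.0061 in WT and 0.0258 in KO). Ripk1, a kinase of both survival and death signalling, rose at 4 h by 0.71 ± 0.14 and 0.95 ± 0.14. Casp8, the protease that holds RIP kinase dependent death in check, rose at 4 h by 0.63 ± 0.15 in WT and 0.91 ± 0.15 in KO. Its rise at 24 h was 0.99 ± 0.15 in WT and 1.04 ± 0.15 in KO.

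The MAP kinase cascade moved in both directions. Map3k8, Map2k1, Map2k4 and Map2k3 rose at 4 h in both genotypes, and Map2k2, Map2k6, Mapk3 and Mapk14 fell. Map3k8, which encodes TPL2, the kinase that activates MEK1 after LPS, read 9.59 and 9.50 without LPS, 10.88 and 10.83 after 1 h, 12.08 and 11.63 after 4 h, and 10.52 and 10.01 after 24 h of exposure in WT and 9.22 and 9.54 without LPS, 10.53 and 10.696 after 1 h, 11.65 and 11.89 after 4 h, and 10.49 and 10.68 after 24 h of exposure in KO. It was higher at 1 h and higher again at 4 h in both genotypes. Its change in WT was 1.31 ± 0.19, 2.31 ± 0.19 and 0.72 ± 0.19 at 1, 4 and 24 h and in KO 1.23 ± 0.19, 2.39 ± 0.19 and 1.20 ± 0.19. Map2k1, which encodes MEK1, read 12.14 and 11.75 without LPS, 12.14 and 11.68 after 1 h, 13.94 and 13.67 after 4 h, and 13.97 and 13.55 after 24 h of exposure in WT and 11.72 and 12.19 without LPS, 11.95 and 11.99 after 1 h, 13.89 and 13.83 after 4 h, and 13.27 and 13.57 after 24 h of exposure in KO. It did not differ from its unstimulated level at 1 h by more than the replicate spread, and it was high at both 4 and 24 h, with changes of 1.86 ± 0.21 and 1.81 ± 0.21 in WT and 1.90 ± 0.21 and 1.46 ± 0.21 in KO. Map2k2, which encodes MEK2, did not follow it, with -0.29 ± 0.09 in WT and -0.37 ± 0.09 in KO at 4 h. Map2k4, an activator of JNK, rose at 4 h by 1.53 ± 0.10 and 1.41 ± 0.10, and Map2k3, an activator of p38, by 0.92 ± 0.19 and 1.25 ± 0.19. Map2k6, the other activator of p38, was not well above background at 4 h in either genotype, and its level there was at least 1.61-fold lower in WT (adjusted p = 8.87e-05) and at least 1.56-fold lower in the RNA labelled KO (adjusted p = 0.000705) than without LPS. These bounds set the mean of the unstimulated samples against the higher of the probe's own signal and the lowest signal well above background on each array.

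The terminal kinases fell or did not pass the test. Mapk3, which encodes ERK1, read 13.60 and 13.46 without LPS, 13.11 and 13.03 after 1 h, 12.07 and 11.92 after 4 h, and 12.41 and 12.58 after 24 h of exposure in WT and 13.37 and 13.31 without LPS, 12.79 and 12.80 after 1 h, 11.96 and 11.53 after 4 h, and 12.47 and 12.29 after 24 h of exposure in KO. Each LPS time lay below the unstimulated samples, and 4 h was the lowest. The change at 4 h was -1.54 ± 0.13 in WT (adjusted p = 4.53e-07) and -1.60 ± 0.13 in KO (adjusted p = 3.21e-07), and at 24 h -1.03 ± 0.13 and -0.96 ± 0.13. Mapk14, which encodes p38α, read 13.37 and 13.40 without LPS, 13.09 and 13.00 after 1 h, 12.20 and 12.48 after 4 h, and 12.25 and 12.51 after 24 h of exposure in WT and 13.27 and 13.31 without LPS, 12.86 and 12.82 after 1 h, 11.9999 and 11.63 after 4 h, and 12.39 and 12.25 after 24 h of exposure in KO. At 4 h the samples labelled KO lay below the WT samples, and at 24 h the values overlapped. Its change at 4 h was -1.04 ± 0.14 in WT and -1.47 ± 0.14 in KO, and at 24 h -1.01 ± 0.14 and -0.96 ± 0.14. Of the JNK genes, the main probe of Mapk9 fell at 24 h by 0.67 on the log2 scale in both genotypes, while its other probe changed by 0.28 in WT and 0.14 in KO, so the fall rests on 1 probe. Mapk8 did not pass at any time, and Map2k7, the other activator of JNK, did not pass either.

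Of the PI3K and AKT genes, Akt1 fell at every time. Akt1 read 14.50 and 14.44 without LPS, 13.93 and 13.86 after 1 h, 12.82 and 12.87 after 4 h, and 13.58 and 13.62 after 24 h of exposure in WT and 14.36 and 14.38 without LPS, 13.81 and 13.76 after 1 h, 12.71 and 12.78 after 4 h, and 13.52 and 13.39 after 24 h of exposure in KO. The 2 replicates of each condition were within 0.13 of each other, the closest spacing among the members given here sample by sample. The changes in WT over the LPS times were -0.57 ± 0.09, -1.62 ± 0.09 and -0.87 ± 0.09, and in KO -0.59 ± 0.09, -1.63 ± 0.09 and -0.92 ± 0.09, with an adjusted p at 4 h of 4.68e-09 in WT and 4.45e-09 in KO. Akt2, a second AKT kinase, fell at 24 h with changes of -0.79 ± 0.15 and -0.84 ± 0.15 on its main probe. Of its other probes, one gave -0.73 in WT and -0.75 in KO at 24 h and another -0.43 and -0.27. Pik3r1, a regulatory subunit of PI3K, fell at 4 h with -0.97 ± 0.12 in WT and -1.09 ± 0.12 in KO. Pik3cg, the catalytic subunit driven by G protein coupled receptors, rose at 24 h by 1.21 ± 0.15 in WT and 0.95 ± 0.15 in KO, and at 4 h its change was 0.34 ± 0.15 (adjusted p = 0.102) and 0.29 ± 0.15 (adjusted p = 0.161).

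The cells changed in other ways over the same times. All 7 macrophage markers measured were well above background in every group, and their summed log2 level before LPS was 19.29 and 19.02 in WT and 18.79 and 18.78 in KO, and at 24 h 17.95 and 18.04 in WT and 17.46 and 17.30 in KO. Single markers went both ways at 24 h, with 2 up and 4 down in WT and 1 up and 4 down in KO. The list holds Lyz2, the locus of the Cre, and without it the sums were 18.41 and 18.29 in WT and 18.25 and 18.30 in KO before LPS, and 17.48 and 17.75 in WT and 17.30 and 17.14 in KO at 24 h. The 6 markers of large peritoneal macrophages had a summed log2 level of 15.24 to 15.65 before LPS and 13.14 to 13.88 at 24 h. Among other cell types, all 6 B cell markers were well above background throughout. Their summed log2 level was 15.99 and 16.37 in WT and 16.15 and 16.69 in KO before LPS, and 15.14 and 15.40 in WT and 14.75 and 15.36 in KO at 4 h, where 2 rose and 2 fell in WT and 2 rose and 4 fell in KO. Also above background were 5 of 6 mast cell markers (12.88 to 13.74 before LPS and 10.75 to 11.8 at 24 h) and 2 of 5 neutrophil markers (11.21 to 11.63 before LPS and 14.48 to 15.99 at 24 h, where S100a8 rose by 3.77 ± 0.36 in WT and 4.49 ± 0.36 in KO). Of the dendritic cell markers 3 of 4 were above background, and their sum went from 15.91 and 15.83 to 14.90 and 14.96 in WT and from 15.39 and 15.41 to 14.94 and 14.94 in KO at 24 h. Single dendritic cell markers went both ways at 24 h, with 1 up and 1 down in each genotype. Of the 7 T and NK cell markers 4 or 5 were above background, with sums of 12.29 to 13.53 over all samples, and of the 4 eosinophil markers 1 or 2. Markers of mesothelial cells and fibroblasts had sums of 9.91 to 10.18 before LPS and 11.17 to 11.62 at 24 h, where 2 of 8 rose in WT and 3 of 8 in KO. The part of these shifts in the changes of the members was not tested. In such bulk RNA, fewer cells of a type and less RNA per cell cannot be told apart.

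The question of the KO was whether loss of FURIN, a protease that cuts proproteins into their active forms, alters these components or their response to LPS. As a check of the labels, the log2 ratio of KO to WT for Furin was -0.59 and -0.85 on the unstimulated arrays, -0.56 and -0.55 after 1 h, 0.00023 and 0.33 after 4 h, and -0.59 and -0.69 after 24 h, with a mean over the times of -0.44 (limma adjusted p = 0.022). Furin was therefore not lower in the RNA labelled KO at 4 h. Lyz2, the gene into which the Cre was placed, was lower in KO on all 8 arrays, with log2 ratios from -1.85 to -0.74 and a mean of -1.18 (adjusted p = 0.000484). Where the Furin probe lies relative to the deleted part of the gene was not given in the sources used here.

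Without the replicate block, no member passed the test of KO against WT at any time, in the mean over the times or in the difference of the LPS response between the genotypes. With the block Ikbke passed in unstimulated macrophages and Peli1 and Mapk3 in the mean. Without it, over all features 0%, 0%, 0.00812% and 0.0244% passed at 0, 1, 4 and 24 h and 0.563% in the mean, and 0% passed for the difference of the response at each of the 3 LPS times. With the block 0%, 0.0352% and 0.211% of all features passed for the difference of the response at 1, 4 and 24 h, and 0 members did. Unadjusted p-values under 0.05 were found for 4, 2, 1 and 1 of the 38 members at the 4 times, for 9 in the mean, and for 0, 1 and 1 in the difference of the response at 1, 4 and 24 h. Over all features the shares with such p-values were 5.75%, 5.46%, 4.31% and 3.42% at the times, 10.7% in the mean, and 1.4%, 2.9% and 3.33% for the response. Among named genes well above background in all 16 channels the share in the mean was 21.5%, close to that of the members. At 0, 1, 4 and 24 h such p-values were found for 1211, 1178, 805 and 684 of these 11008 genes. The methods' t-test also called 0 members at each time, with unadjusted p-values under 0.05 for 5, 1, 2 and 0 members, where 4.62%, 4.75%, 3.07% and 4.1% of all features had such p-values under that test and 0% passed after adjustment. The fitted log2 ratios lay between -0.50 and 0.31, -0.27 and 0.37, -0.52 and 0.37 and -0.34 and 0.37 at 0, 1, 4 and 24 h, with a median SE of 0.12. A ratio of 1 log2 unit lay outside the 95% interval of every member at every time, since the intervals ran from -0.87 to 0.80. Among the mean ratios over the times, the intervals ran from -0.49 to 0.35. Some markers of cell type differed between the genotypes in the mean over the times. Of the 7 macrophage markers, Csf1r (-0.41 ± 0.05, adjusted p = 0.0183) and Lyz2 were lower in KO, and of the 6 markers of large peritoneal macrophages Icam2 was higher (0.34 ± 0.05, adjusted p = 0.0265). No other marker of either list passed in the mean. The median log2 ratio was -0.03 over the 7 and 0.16 over the 6, and ratios of both signs occurred in each list. No mast cell marker passed, and the median of their 6 log2 ratios was 0.43. The 6 B cell markers had median log2 ratios of 0.21, 0.39, -0.22 and 0.11 at 0, 1, 4 and 24 h, and none of them passed at any time. The part of these differences in the ratios of the members was not tested. A p that misses the threshold does not show that a member is equal in the 2 genotypes.

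**Figure D3:**
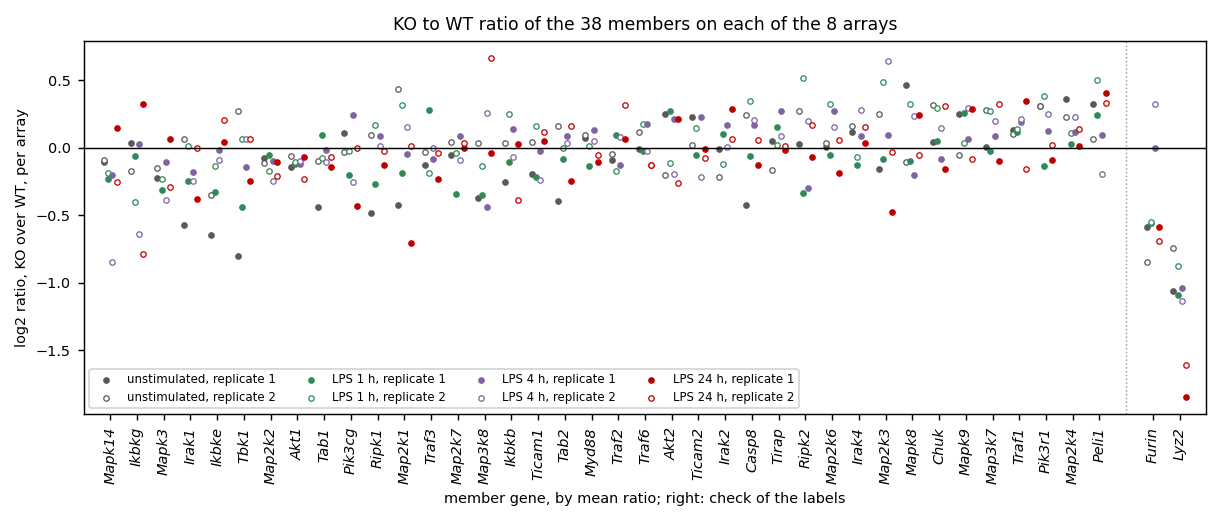
Log2 ratio of KO to WT on each of the 8 arrays (colours for the times, filled for replicate 1 and open for replicate 2) for the 38 members, ordered by their mean ratio, with Furin and Lyz2 at the right. Members scatter around 0 on both sides, while Lyz2 is below 0 on all 8 arrays and Furin on 6.

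The ratio had the same sign on both arrays for 20, 17, 23 and 17 of the 38 members at 0, 1, 4 and 24 h, and the 3 greatest at each time are given here. In unstimulated macrophages they were Ikbke, with log2 ratios of -0.65 and -0.35 (mean -0.50 ± 0.11, adjusted p = 0.262), Pik3r1 with 0.31 on both arrays (mean 0.31 ± 0.12, adjusted p = 0.793) and Map2k4 with 0.36 and 0.23 (mean 0.30 ± 0.09, adjusted p = 0.539). At 1 h they were Peli1 with 0.24 and 0.50, Mapk3 with -0.31 and -0.23 and Map3k8 with -0.35 and -0.13. At 4 h they were Mapk14 with -0.20 and -0.84, Map2k3 with 0.10 and 0.65 and Mapk3 with -0.11 and -0.39. At 24 h they were Peli1 with 0.41 and 0.33, Map2k3 with -0.47 and -0.03 and Pik3cg with -0.43 and -0.0032. All of their adjusted p-values were 0.262 or higher.

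Replicate number and dye orientation are the same factor in this series, and a fit with the replicate as a block called 3 of these ratios. Ikbke was then lower in unstimulated KO macrophages (adjusted p = 0.0312), where 1.06% of all features passed. In the mean over the times Mapk3 was lower (-0.21 ± 0.06, adjusted p = 0.0386 with the block and 0.193 without) and Peli1 was higher (0.22 ± 0.06, adjusted p = 0.0331 with the block and 0.166 without), where 6.01% of all features passed. The block called no member at 1, 4 or 24 h, where 0.577%, 0.568% and 0.585% of all features passed. The mean ratio of Peli1 was 0.19, 0.37, -0.05 and 0.37 at 0, 1, 4 and 24 h. For Ikbke, the difference of the LPS response between KO and WT was 0.45 ± 0.15 at 4 h (adjusted p = 1) and 0.62 ± 0.15 at 24 h (adjusted p = 0.764; 0.12 with the block), the largest of the 38 members at both times. Over all 6 pairs of times, the ratio of KO to WT was compared between times for each member, and of these 228 differences 0 passed, with the lowest adjusted p at 0.764. Before adjustment 6 of the 228 had a p under 0.05, where 2.69% of these differences did over all features and 0% passed after adjustment.

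**Figure D4:**
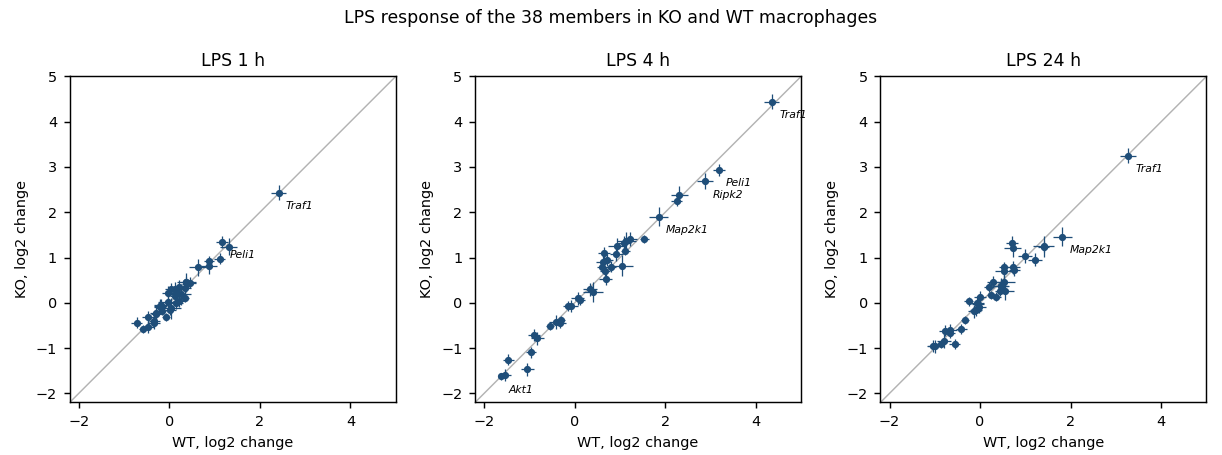
Log2 change with LPS (LPS minus unstimulated) of each of the 38 members in WT (horizontal axis) and KO (vertical axis) at 1, 4 and 24 h, with bars of 1 SE and the line of equal change. The points follow the line at each time, and no member passed the test of the difference.

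Members with several probes offered a further reading of the same changes. Of 18 other probes, 10 gave LPS changes within 0.5 log2 units of the main probe in all 6 comparisons, 6 differed by 0.5 to 1 somewhere and 2 by more than 1. For Traf2, Map2k4, Ikbkg, Mapk3, Irak1, Irak4 and Pik3cg the other probes moved in the same direction as the main probe at 4 h in both genotypes. The greatest gaps were on the second probe of Irak2, which rose by 1.92 in WT and 2.10 in KO at 4 h where the main probe gave 0.59 and 0.79, and on the second probe of Mapk14, which gave -0.26 and -0.43 where the main probe gave -1.04 and -1.47. Other probes moved against the main probe at 4 and 24 h in both genotypes for Mapk9 and Mapk8. The other probe of Mapk9 gave 0.32 in WT and 0.60 in KO at 4 h, where the main probe gave -0.15 and -0.07. One of the other probes of Mapk8 gave -0.19 and -0.20 at 4 h, where the main probe gave 0.41 and 0.24. Changes on other probes were not tested.

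**Figure D5:**
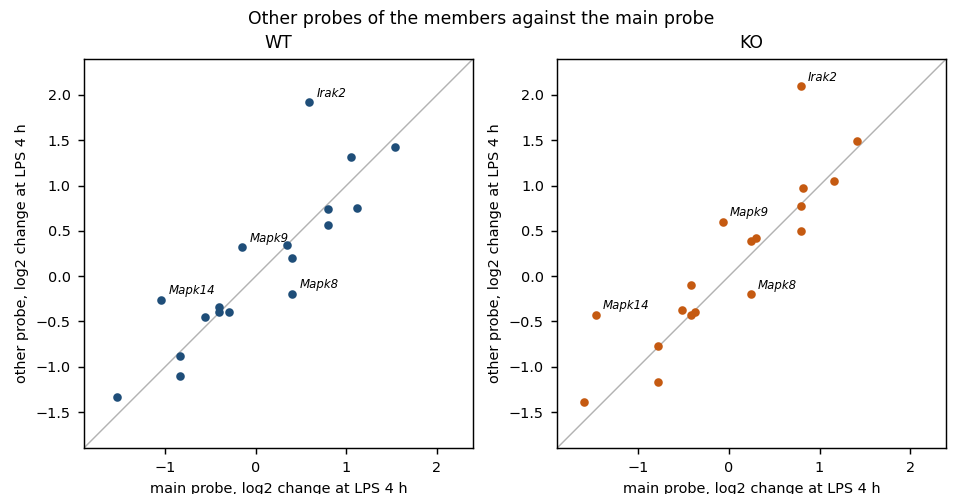
Log2 change at 4 h of LPS on the 18 other probes of members with several probes (vertical axis) against the main probe of the same gene (horizontal axis), in WT and KO, with the line of equal change. Irak2 lies above the line and Mapk14 to the left of it in both genotypes.

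A further 91 genes of the pathway that are not among the 38, all measured, were counted in the same fits. In WT macrophages 33 rose and 4 fell at 1 h, 48 rose and 25 fell at 4 h, and 29 rose and 31 fell at 24 h. In KO macrophages 32 rose and 3 fell, 45 rose and 25 fell, and 28 rose and 26 fell. Over all features 8.54%, 34.8% and 30.4% passed in either direction in WT and 7.54%, 36% and 28.7% in KO. Among named genes well above background in all 16 channels the shares were 18.9%, 68% and 57.9% in WT and 17.4%, 68.8% and 55.1% in KO. The 91 genes were not restricted to that condition. At 4 h in WT the inhibitors had a median change of 2.20 (8 of 13 rose and 3 fell) and the NF-κB, AP-1 and IRF factors with their regulators one of 2.02 (17 of 18 rose and 1 fell), above the 0.64 of the adaptors and kinases described here, while the other kinases and PI3K subunits had a median of -0.04 (6 of 23 rose and 10 fell) and the receptors and co-receptors one of 0.00 (6 of 16 rose and 3 fell). The further adaptors, ubiquitin and death-domain components had a median of 0.49 (11 of 21 rose and 8 fell). Tnfaip3, which encodes the deubiquitinating brake A20, rose at 4 h by 4.08 ± 0.12 in WT and 4.02 ± 0.12 in KO, and Irak3, an inhibitory IRAK, by 1.70 ± 0.16 and 1.78 ± 0.16. Malt1, a protease scaffold of NF-κB signalling, rose by 3.20 ± 0.19 and 3.13 ± 0.19, and Tank, a scaffold of TBK1, by 2.25 ± 0.14 and 2.07 ± 0.14. Among those that fell were Pik3r2, a PI3K regulatory subunit, with -2.93 ± 0.14 and -2.92 ± 0.14, Map3k1 with -2.50 ± 0.19 and -2.59 ± 0.19, and Peli2, a relative of Peli1, with -2.37 ± 0.15 and -2.24 ± 0.15. Tlr4 itself changed by 0.93 ± 0.20 in WT and by 0.45 ± 0.20 in KO at 4 h, where the KO value had an adjusted p of 0.109 and the WT value one of 0.00205. Between KO and WT, 0 of the 91 passed the limma test at any time, in the mean or in the difference of the response, and 12, 8, 6 and 5 of them had an unadjusted p under 0.05 at 0, 1, 4 and 24 h. With the replicate block 2, 2, 1 and 3 of them passed at these times and 10 in the mean, where 1.06%, 0.577%, 0.568%, 0.585% and 6.01% of all features did. The shares of all features with an unadjusted p under 0.05 were 5.75%, 5.46%, 4.31% and 3.42% at the same times. Of 11008 named genes well above background in all 16 channels, 1211, 1178, 805 and 684 had such p-values at these times.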

How the data were processed

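Peritoneal macrophage RNA of 8 WT and 8 KO samples was compared on 8 two-colour arrays, with the dyes swapped between replicates 1 and 2. The deposited scanner files hold intensity values, which the authors extracted with Agilent Feature Extraction 10.7.3. The authors also deposited log2 ratios of Cy5 to Cy3, used here only as an alternative. Median signals were background corrected (limma 3.58.1 in R 4.3.3, normexp with an offset of 50), normalised by loess within and quantiles between arrays, and filtered at a mean log2 intensity of 6, which left 36947 features for ratios and 36927 for channels. KO/WT ratios were fitted with lmFit and LPS changes with lmscFit (within-spot correlation 0.105, estimated with statmod 1.5.0 on 5000 genes), with Benjamini-Hochberg adjustment over all features. Times came from the sample titles; the growth protocol in the labels gives 4 h of stimulation for every sample, which conflicts with them. All arrays lay on 1 slide with 1 scan time. The labels call the replicates biological. Deviations of same-numbered samples correlated in all 6 pairs of times (r of 0.475 to 0.679 for ratios, 0.339 to 0.565 in WT and 0.214 to 0.336 in KO). Replicate number is also the dye orientation, so these correlations cannot tell pairing of the samples from an effect of the dyes. The methods' t-test, other scalings, a replicate block and left-out arrays were alternatives. The fits were also run on simulated data with independent noise and no dye or replicate effect, so that run does not cover such effects. Named members are those with a called LPS change of 1 or more (log2), those called between genotypes with or without the block, and the 3 greatest same-sign ratios per time. The members and lists were chosen with earlier results of these data known.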

Additional observations from a re-analysis of the deposited data

Results flagged for a closer look

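Probes that the comparisons did not use gave other values for 2 members. The second probe of Irak2 rose by 1.92 in WT and 2.10 in KO at 4 h of LPS, against 0.59 and 0.79 on the main probe, and its mean log2 intensity was 9.26 against 12.80. The second probe of Mapk14 changed by -0.43 in the RNA labelled KO at 4 h, against -1.47 on the main probe, with a mean log2 intensity of 8.05 against 12.68. Which transcripts each probe reads was not tested.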

How the results depend on the processing

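Of the LPS and KO/WT results of the named members and the counts of members, which are the results recomputed under the alternatives, none changed direction. The LPS calls of the named members (56 results) held in all 448 fits that left out 1 array and in 450 of the others, and 54 lost the call, 52 of them under the methods' t-test and the other 2 for Ikbkg in WT at 4 h (0.63 with loess within arrays only and 0.68 with processed signals). At 1 h the number of members called was 8 in WT and 9 in KO with loess within arrays only and 7 and 6 with processed signals. Leaving out 1 array gave 7 to 15 in WT and 7 to 15 in KO at 1 h, 29 to 31 and 29 to 32 at 4 h, and 19 to 26 and 21 to 26 at 24 h. The methods' t-test, adjusted over all features, called 0 and 0 members at 1 h, 5 in WT and 1 in KO at 4 h, and 0 and 0 at 24 h, with unadjusted p-values under 0.05 for 18 and 12, 29 and 27, and 23 and 21. With the replicate block 1 member was called between KO and WT without LPS (Ikbke) and 2 in the mean over the times (Mapk3 and Peli1). The block also added 12 LPS calls (9 in WT and 3 in KO), lost 0, and changed no other call of a member. The KO/WT counts stayed at 0 in all fits that left out 1 array. The count in the mean over the times was also 0 without both 4 h arrays, an alternative chosen after seeing the data. With 2 arrays a time, their number limits the precision.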
